A study of Homo sapiens with 4 samples.

Results

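The transcriptome of HGC-27, a cell line from an undifferentiated human gastric carcinoma, was compared after 1 day in 10 nM estradiol with that of the same line kept without it. Members were all genes with a mean count of 10 or more over the 2 HGC-27 libraries, which left 17234 of the 58336 genes of the deposited table. Of these, 13179 were protein coding, 1119 antisense transcripts, 909 long intergenic noncoding RNAs and 715 processed pseudogenes. The series held 4 RNA sequencing libraries: 1 control and 1 estradiol library of HGC-27, and 1 control and 1 estradiol library of AGS, an epithelial gastric adenocarcinoma line given the same dose for the same time. The genotype of all 4 is given as WT; the labels used here name no carrier for the controls and do not describe the medium. The comparison asks which transcripts differ in HGC-27 when the hormone is present.

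With 1 library a side there is no replicate check, and nothing in the labels says how many dishes or experiments a library stands for. Each gene was therefore described by its log2 ratio of estradiol over control. The library sizes in that ratio were scaled by TMM (trimmed mean of M values, which balances the bulk of genes between libraries). Each ratio came with an exact 95% counting interval. Such an interval covers counting error at best, and it says nothing of the spread between cultures. Reads lack molecular identifiers and may be copies of 1 molecule, so it can be too narrow. In HGC-27 the spread of ratios across genes, which includes any response, exceeded the counting spread. It was 1.29 times that spread at a mean count of 10 to 20 and 2.22 times at 5000 or more. A gene is called higher or lower below when its ratio was at least 1.2-fold and its interval excluded 0. Levels are counts per 1000000 (CPM) of the same scaled library sizes. In bulk RNA, fewer cells of a type and less RNA per cell cannot be told apart.

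Estradiol, the main oestrogen, acts mainly through the nuclear receptors ESR1 and ESR2, which bind DNA and switch on targets such as PGR, GREB1 and TFF1 in breast cells, and through the membrane receptor GPER1, which signals to kinases and cyclic AMP. The hypoxia-inducible factors (HIF) are pairs of an oxygen-labile alpha subunit (HIF1A or EPAS1) and ARNT. In normal oxygen the prolyl hydroxylases EGLN1 to EGLN3 mark the alpha subunit for VHL and the proteasome; when it persists, the pair binds the core motif ACGTG or GCGTG and raises genes of glucose use, pH control, vessel growth and collagen maturation.

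Total counts were 28734374 in the HGC-27 control and 24597379 in the HGC-27 estradiol library, so 3 counts correspond to 0.105 and 0.121 CPM, and the mitochondrial share was 7.91% and 7.88%. HGC-27 carried a mesenchymal rather than a gastric epithelial profile in both libraries. VIM, an intermediate filament of mesenchymal cells, had 39235 counts in control and 34138 with estradiol (log2 ratio 0.01), and the 7 measured of 8 mesenchymal markers summed to 61347 and 53542 counts. The 14 epithelial markers, 9 of them measured, summed to 2299 and 2093 counts, most of them in members not named here. CDH1, the epithelial cadherin, had 55 and 68 counts, EPCAM 10 and 8, and KRT19 1 and 2. Of 12 gastric markers 3 were measured, with 501 and 506 counts in all, and the stomach mucin MUC5AC, TFF1, TFF2, GKN1, GKN2, PGC and GIF were at 0 in both. All 9 fibroblast markers were measured, with sums of 121856 and 110746 counts, and COL1A1 had 40002 and 35403. Leukocyte markers summed to 157 and 141 counts, with CD3E, CD3D and MS4A1 at 0; PTPRC, the common leukocyte antigen, had 6 and 22. Endothelial markers summed to 33 and 21 counts, with PECAM1, CDH5 and KDR at 0.

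Of the 17234 genes, 978 (5.67%) were called higher and 392 (2.27%) lower with estradiol. Without a minimum fold, the counting interval lay above 0 for 1754 genes (10.2%) and below 0 for 1911 (11.1%). In AGS, with 15605 genes at the same count minimum, 736 (4.72%) were called higher and 847 (5.43%) lower, and intervals lay above 0 for 13.3% and below 0 for 12.9%. Most differences in HGC-27 were small. Among the 11663 genes with a mean count of 100 or more, the median ratio was -0.01 and 90% of ratios fell between the 5th percentile of -0.19 and the 95th of 0.27. Only 9 of them were at least 2-fold higher and 1 was at least 2-fold lower, with intervals excluding 0.

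**Figure D1:**
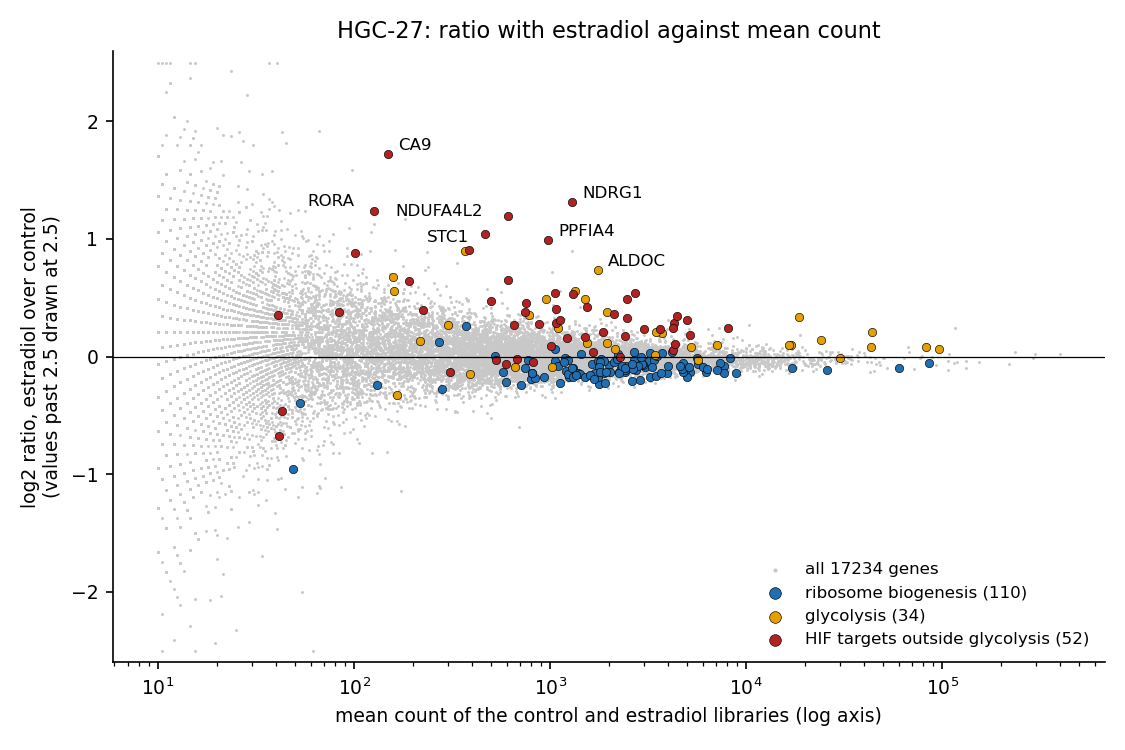
Log2 ratio of estradiol over control (vertical axis) against mean count of the 2 HGC-27 libraries (horizontal log axis), 1 point a gene, with coloured points for the hypoxia, glycolysis and ribosome biogenesis lists. CA9 at 1.72 and NDRG1 at 1.31 lead the hypoxia genes, and the cloud narrows as counts grow.

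The ratio also depended on expression level. Genes with a mean count of 10 to 20 had a median ratio of 0.09, and those of 5000 or more a median of -0.03, with 0.06 at 100 to 200 and -0.02 at 2000 to 5000 between them. In AGS the medians of the same bins lay between -0.02 and 0.03. When the median of genes of like count was subtracted, the calls in HGC-27 became 720 higher and 559 lower in place of 978 and 392. The part of this drift in the excess of higher calls was not tested beyond that correction. At the edge of the count minimum, the 288 genes with a mean count of 10 to 11 had a median ratio of 0.08, and the 339 genes just outside it, from 9 to 10, had 0.21.

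**Figure D2:**
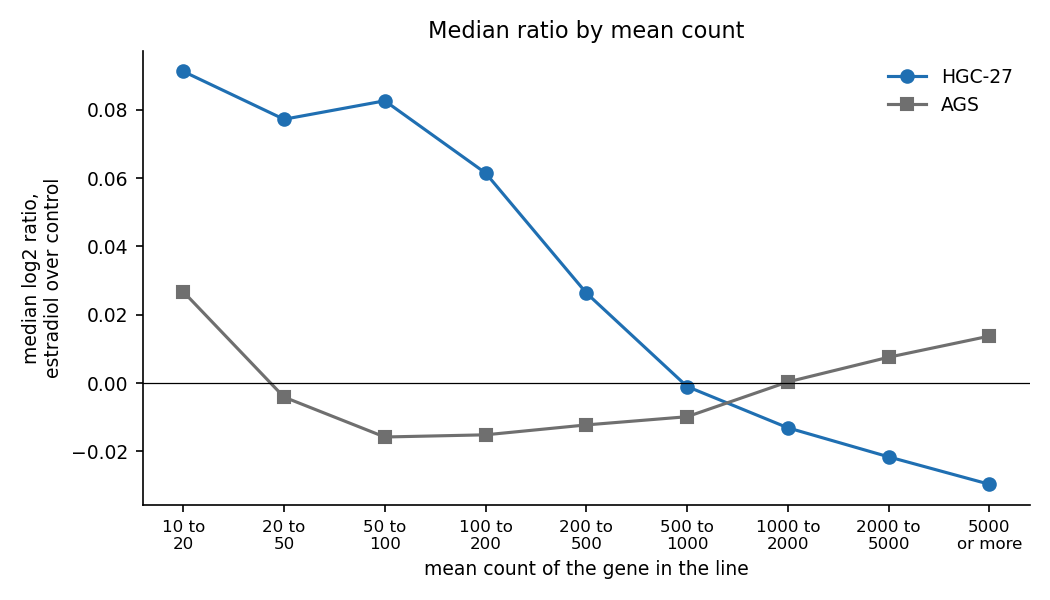
Median log2 ratio of estradiol over control (vertical axis) in bins of mean count (horizontal axis), with 1 line for each cell line. In HGC-27 the median falls from 0.09 in the lowest bin to -0.03 in the highest, and in AGS it stays between -0.02 and 0.03.

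Genes of the hypoxia response were frequent among the highest ratios. The 20 highest and 20 lowest ratios were taken among protein-coding and long noncoding genes with a mean count of 100 or more, leaving out genes that share 50% or more of their sequence with others, so that some of the 2-fold differences counted above are not among them. Of the 20 highest, 10 belonged to the lists of known HIF targets, glycolysis or the HIF system, and of the 20 lowest, 0 did. Of all 17234 genes, 52, 34 and 9 were measured members of these lists, before the filters of this ranking. At so small a share 0 of 20 is unremarkable, so the lowest genes form no contrast. These lists were written with earlier results of these data known, so their counts describe the response and are no independent evidence for it. For several of these genes the promoters are shown, because HIF is known to bind such sequences close to the start of its targets. They are 250 bases upstream of the RefSeq start on GRCh38.p14, 5' to 3' on the gene's strand, with each match to ACGTG or GCGTG on either strand in capitals (the reverse complements read CACGT and CACGC, and CACGTG holds 2 overlapping matches).

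CA9, chr9:35673678-35673927, plus strand: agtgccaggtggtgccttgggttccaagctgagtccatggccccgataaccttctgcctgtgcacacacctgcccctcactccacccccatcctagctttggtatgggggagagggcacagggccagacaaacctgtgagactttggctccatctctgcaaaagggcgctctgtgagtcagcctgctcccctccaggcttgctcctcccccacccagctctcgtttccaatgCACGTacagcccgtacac
PPFIA4, chr1:203026241-203026490, plus strand: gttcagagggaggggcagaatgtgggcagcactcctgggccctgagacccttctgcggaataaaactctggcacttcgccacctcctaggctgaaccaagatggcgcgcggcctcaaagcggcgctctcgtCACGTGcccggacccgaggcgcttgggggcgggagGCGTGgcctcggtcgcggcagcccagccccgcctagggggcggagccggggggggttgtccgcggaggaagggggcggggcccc
PFKFB4, chr3:48556804-48557053, minus strand: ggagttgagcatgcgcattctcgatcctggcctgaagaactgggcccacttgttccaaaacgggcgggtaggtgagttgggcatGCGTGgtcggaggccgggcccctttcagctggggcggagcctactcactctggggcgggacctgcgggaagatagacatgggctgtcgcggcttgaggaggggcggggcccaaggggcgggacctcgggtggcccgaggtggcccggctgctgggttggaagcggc
ALDOC, chr17:28576896-28577145, minus strand: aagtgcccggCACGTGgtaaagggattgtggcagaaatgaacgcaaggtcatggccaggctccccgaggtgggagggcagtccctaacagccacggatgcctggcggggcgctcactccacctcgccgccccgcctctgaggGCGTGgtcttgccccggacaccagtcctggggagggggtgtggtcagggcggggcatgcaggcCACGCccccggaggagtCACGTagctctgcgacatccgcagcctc

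The single match in CA9 began 18 bases before the start, PPFIA4 held 3 matches, PFKFB4 had 1, at 166 bases before the start, and ALDOC held 5. Of the other HIF target and glycolysis genes among the 20 highest whose promoters were read, INSIG2 and MIR210HG held 2 matches each and RORA none. The RORA window (chr15:60627531-60627780, minus strand) lies well inside the deposited gene (chr15:60488284-61229319). The PFKFB4 and ALDOC windows also lie within the deposited spans of their genes. Other starts of these genes were not read, and NDUFA4L2 had no promoter sequence to read. Genes on chromosome 8, which include NDRG1 and STC1, were left out of this reading. Members of the 20 highest outside these lists were not read. At least 1 match was present in 43.08% of all 27305 RefSeq promoters of this length, and in 56.93% of those of genes counted in HGC-27. Of the HIF targets outside glycolysis, 39 had a promoter in the table and 84.62% of these held a match. The share was 78.95% of 19 members called higher and 90% of the 20 others, while ACGTG alone was in 68.42% and 50%. Of the glycolysis promoters, 70% of the 10 of genes called higher and 52.63% of the 19 others held a match, and 60% and 31.58% held ACGTG. With so few promoters no order is read from these shares. Among ribosome biogenesis factors, described further on, 71.43% of 91 promoters held a match. A match is a description of the letters in this window and not evidence of binding.

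CA9, a membrane carbonic anhydrase that exports acid, had the highest ratio of the 20. It stood at 2.69 CPM (77 counts) in control and 8.90 CPM (220 counts) with estradiol, which is 3.29-fold higher (log2 ratio 1.72, interval 1.35 to 2.12). The gene (ENSG00000107159, chr9:35673856-35681159 in the deposited table) shares 38.5% of its exon sequence with overlapping genes, so a part of its reads could be theirs. NDRG1, a stress-responsive growth suppressor, was at 28.8 and 71.6 CPM, or 2.49-fold higher (1.31, 1.19 to 1.44). NDUFA4L2 (ENSG00000185633, chr12:57234903-57240715), a mitochondrial protein known to restrain complex I, was at 14.3 and 32.9 CPM, or 2.29-fold higher (log2 interval 1.03 to 1.37). All 3 intervals lie above the 95th percentile of 0.27 given above. The genes were picked for their high ratios, so this largely follows from the choice and is no added support.

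STC1, a secreted glycoprotein of calcium and phosphate handling, had 11.7 CPM in control and 24.2 with estradiol (1.04, 0.85 to 1.24). RORA, a nuclear receptor of the circadian clock, had 83 and 170 counts, or 2.90 and 6.88 CPM (1.24, 0.86 to 1.64). PPFIA4, a liprin scaffold protein, had 25.1 and 49.9 CPM (0.99, 0.86 to 1.13). The interval of PPFIA4 is the narrowest of these 3. INSIG2, which holds the sterol sensor complex in the endoplasmic reticulum, had 10.3 and 19.3 CPM (0.90, 0.69 to 1.12). MIR210HG, the host transcript of a hypoxia-induced microRNA, had 78 and 124 counts (0.88, 0.46 to 1.31).

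**Figure D3:**
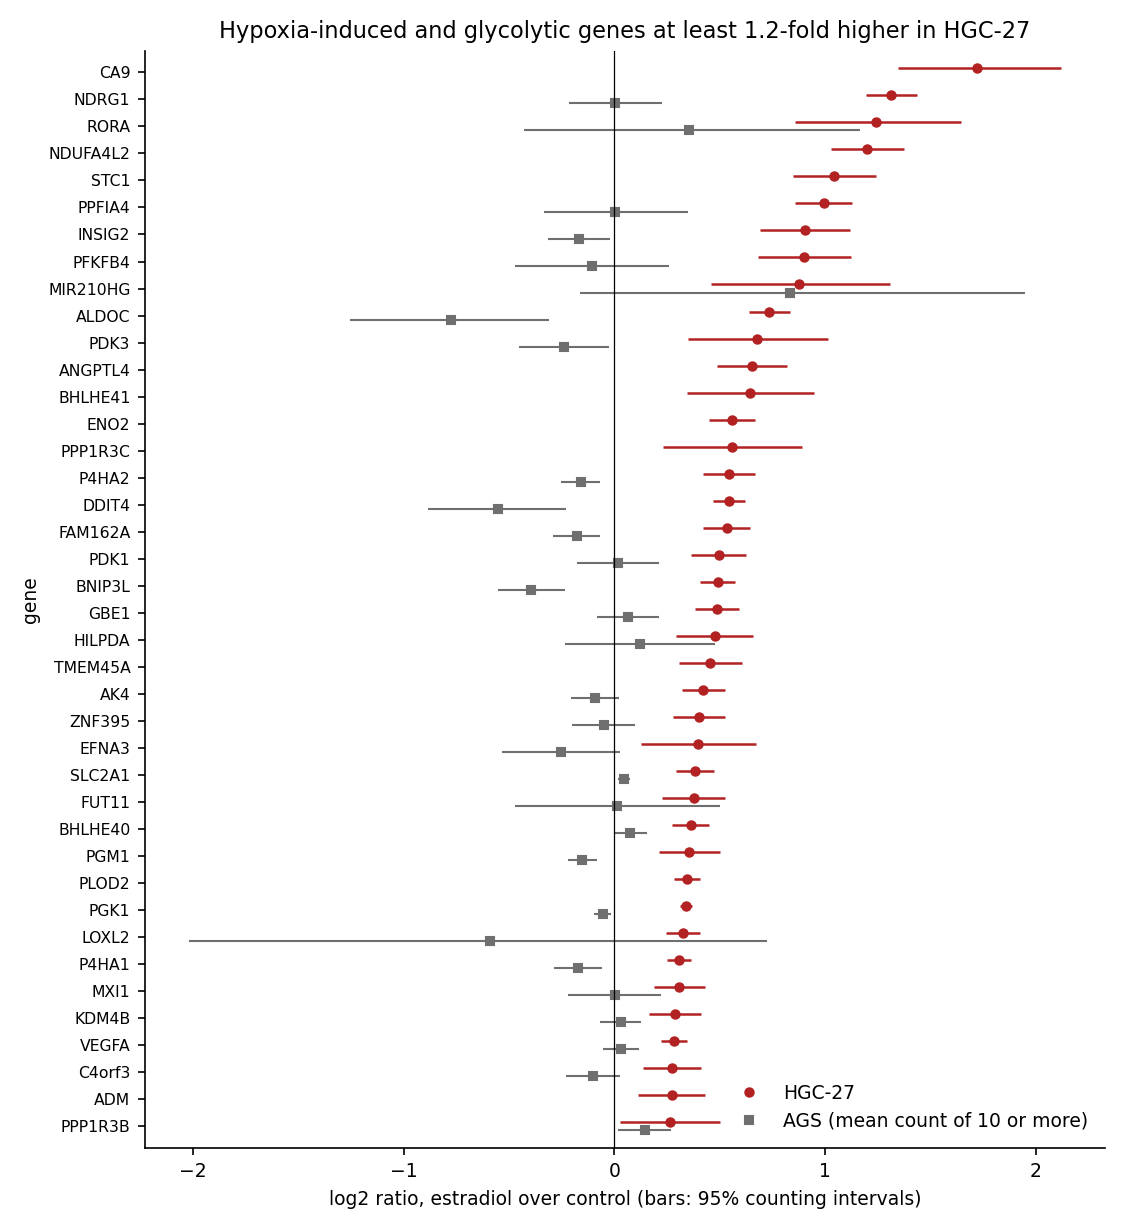
Log2 ratio of estradiol over control for the genes of the hypoxia and glycolysis lists that were called higher in HGC-27, 1 gene a row, with 95% counting intervals in HGC-27 and, where the mean count reached 10, in AGS. CA9, NDRG1, RORA and NDUFA4L2 lead in HGC-27; the 41 HIF targets measured in AGS have a median of -0.03 there.

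The list of HIF targets outside glycolysis held 54 genes, of which 52 were measured in HGC-27. Their median log2 ratio was 0.31, beside 0.00 over all genes, and 44 ratios were above 0. Intervals lay above 0 for 39 members and below 0 for 1; 29 were called higher and 1 lower. The median stayed between 0.31 and 0.32 under the 13 alternative settings, and it was 0.31 after subtraction of genes of like count. At a limit of 1.5-fold, 10 members were called higher and 1 lower.

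By role, the enzymes that mature collagen and form disulfide bonds were all on the higher side. All 8 had an interval above 0, with a median of 0.27, and 4 were called higher. P4HA2, a collagen prolyl hydroxylase, was at 32.9 and 48.0 CPM (0.54, 0.42 to 0.67). The related enzyme P4HA1 was at 168 and 207 CPM (0.31, 0.25 to 0.37). PLOD2, which hydroxylates collagen lysines for cross-linking, was at 147 and 187 CPM (0.34, 0.28 to 0.40), and LOXL2, a lysyl oxidase, at 82.6 and 104 CPM (0.33, 0.25 to 0.41). LOX, which cross-links collagen and elastin, was at 183 and 208 CPM (0.18, 0.13 to 0.24), short of the 1.2-fold limit.

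Of 9 secreted or surface signals, 5 were called higher. VEGFA, the main vessel growth factor, was at 146 CPM in control and 178 with estradiol (0.28, 0.22 to 0.35). ANGPTL4, an inhibitor of lipoprotein lipase, was at 18.1 and 28.4 CPM (0.65, 0.48 to 0.82). ADM, the vasodilator peptide adrenomedullin, was at 22.3 and 27.0 CPM (0.27, 0.11 to 0.43). The list was not uniform, since STC2 (84.9 and 84.8 CPM, -0.00) and IGFBP3 (61.6 and 63.1 CPM, 0.04) had intervals that included 0. Of the 4 genes of pH control only CA9 was called; CA12, a second membrane carbonic anhydrase, was at 65.1 and 75.2 CPM (0.21, 0.12 to 0.30).

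Among mitochondrial members, 4 of the 7 measured were called higher. BNIP3L, a receptor for mitochondrial autophagy, was at 77.5 and 109 CPM (0.49, 0.41 to 0.57). FAM162A, a mitochondrial protein of hypoxic cell death, was at 40.4 and 58.4 CPM (0.53, 0.42 to 0.65), and the adenylate kinase AK4 at 49.7 and 66.5 CPM (0.42, 0.32 to 0.53). BNIP3, the close relative of BNIP3L, went the other way at low depth, with 54 and 29 counts (-0.67, -1.39 to -0.01), and was the only member of the list called lower. That call was lost with total-count scaling and with a 99% interval.

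Of the 12 measured genes of stress, lipids and other roles, 9 were called higher. DDIT4, an inhibitor of mTORC1, was at 84.1 and 123 CPM (0.54, 0.47 to 0.62), with 41.2% of its exon sequence overlapping another gene. HILPDA, which coats lipid droplets, was at 15.8 and 22.0 CPM (0.48, 0.29 to 0.66). TMEM45A was at 24.0 and 32.9 CPM (0.45, 0.31 to 0.60). INSIG1, the sterol-responsive relative of INSIG2, was at 278 and 330 CPM (0.24, 0.20 to 0.29), below the limit. Of the 7 transcriptional regulators 5 were called higher. The clock repressors BHLHE40, at 70.0 and 90.0 CPM (0.36, 0.27 to 0.45), and BHLHE41, with 163 and 220 counts (0.64, 0.35 to 0.95), were among them, as was MXI1, an antagonist of MYC, at 37.8 and 46.7 CPM (0.31, 0.19 to 0.43). The histone demethylases had a lower median of 0.17; KDM4B was called, at 36.5 and 44.4 CPM (0.29, 0.16 to 0.41), and KDM3A, at 147 and 174 CPM (0.25, 0.18 to 0.31), was just under the limit.

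Genes of glucose use were higher by less. All 34 of the list were measured, with a median of 0.12; intervals lay above 0 for 25 and below 0 for 1, and 11 were called higher and 1 lower. The largest differences were at the regulatory branches. PFKFB4, which sets fructose 2,6-bisphosphate, was at 9.82 and 18.3 CPM (0.90, 0.68 to 1.12). Of the 3 pyruvate dehydrogenase kinases on the list, which inhibit the conversion of pyruvate to acetyl-CoA, PDK1 was called higher at 30.1 and 42.3 CPM (0.49, 0.36 to 0.63), as was PDK3 with 133 and 184 counts (0.68, 0.35 to 1.01). PDK2 had 436 and 340 counts (-0.15, -0.36 to 0.06).

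Glycogen genes were higher too. GBE1, the glycogen branching enzyme, was at 47.4 and 66.4 CPM (0.49, 0.38 to 0.59), PGM1, which links glucose 1-phosphate to glucose 6-phosphate, at 25.9 and 33.1 CPM (0.35, 0.21 to 0.50), and the glycogen-targeting subunit PPP1R3C had 140 and 178 counts (0.56, 0.23 to 0.89). In the group of the pyruvate gate and glycogen, 6 of 10 were called higher, with a median of 0.31, against medians of 0.11 in the transporters, the upper steps and the lower steps.

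Along the main path, ratios differed between isoforms. ALDOC, the brain-type aldolase, had 1431 and 2056 counts (0.73, 0.64 to 0.83), and ENO2, the neuronal enolase, at 41.4 and 61.0 CPM (0.56, 0.45 to 0.67). ENO1, the ubiquitous enolase, had 100841 and 91096 counts and a ratio of 0.06 (0.05 to 0.08). PGK1, phosphoglycerate kinase, stood out among the abundant enzymes at 621 and 786 CPM (0.34, 0.31 to 0.37), while LDHA was at 1524 and 1759 CPM (0.21, 0.19 to 0.23) and GAPDH at 3014 and 3184 CPM (0.08, 0.07 to 0.09). The glucose transporter SLC2A1 had 1832 and 2062 counts (0.38, 0.29 to 0.47). The lactate exporter SLC16A3 had 196 and 135 counts (-0.32, -0.65 to -0.00) and was the only one called lower, a call lost at a 99% interval and with total-count scaling.

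The transcripts of HIF itself differed little. HIF1A was at 189 CPM in both libraries (-0.01, -0.06 to 0.05) and ARNT at 99.7 and 99.3 CPM (-0.01, -0.08 to 0.07). EPAS1, the other alpha subunit, had 59 and 56 counts (0.14, -0.42 to 0.69), and HIF3A 1 and 3. The oxygen sensors, of which EGLN1 and EGLN3 are known HIF targets too, were partly higher. EGLN1 was at 60.3 and 75.2 CPM (0.32, 0.22 to 0.41) and was called; EGLN3 was at 29.9 and 33.4 CPM (0.16, 0.02 to 0.30) and EGLN2 had 150 and 136 counts (0.07). VHL, the ligase that degrades the alpha subunits, had a ratio of 0.10, and HIF1AN, which blocks their activation domain, one of -0.02; CITED2, a HIF-induced inhibitor, was at 25.7 and 28.8 CPM (0.17, 0.01 to 0.32).

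Transcripts of the oestrogen receptors themselves were low or level. ESR1 had 1 count in control and 3 with estradiol, ESR2 17 and 19 (0.37, -0.65 to 1.41), and PGR 0 in both libraries, which allows at most 0.105 and 0.121 CPM. GPER1 was detected throughout, at 36.7 and 36.2 CPM (-0.02, -0.15 to 0.11). The oestrogen-related receptor ESRRA was at 49.0 and 48.1 CPM (-0.03). None of the 6 measured of 10 receptors had an interval excluding 0.

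Genes that oestrogen raises in breast cells showed no common direction. Of 39 on the list, 30 were measured, with a median of 0.03; intervals lay above 0 for 3 and below 0 for 4, and 1 was called in each direction. MYB, a transcription factor, had 226 and 253 counts (0.37, 0.11 to 0.64) and was higher. PRSS23, a secreted protease, had 283 and 197 counts (-0.31, -0.58 to -0.04) and was lower. GREB1 had 27 and 17 counts (-0.44, -1.42 to 0.47), and TFF1 was at 0 in both libraries. The interval of GREB1 includes 0.

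Several genes outside the hypoxia lists were among the 20 highest. NRN1, the membrane-anchored neurite factor neuritin, was at 34.6 and 64.2 CPM (0.89, 0.78 to 1.01). IGFBP5, which binds insulin-like growth factors, was at 29.4 and 48.4 CPM (0.72, 0.59 to 0.85), the only member of 14 measured in the insulin-like growth factor axis that was called. IER3, an immediate-early survival gene, was at 9.37 and 16.3 CPM (0.80, 0.57 to 1.03). NRN1 was undetected in AGS, with 0 counts in each library.

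Cell-surface and signalling genes of lower abundance were in the same group. TEC, a cytoplasmic tyrosine kinase, had 92 and 148 counts (0.89, 0.51 to 1.29), TLR6, a receptor for bacterial lipopeptides, 84 and 133 (0.87, 0.47 to 1.29), and P2RX4, an ATP-gated channel, 91 and 132 (0.75, 0.35 to 1.15). BCDIN3D, an RNA methyltransferase, had 83 and 123 counts (0.78), and FAM174A 143 and 211 (0.77, 0.46 to 1.09). Their intervals are broad, as the counts are near the minimum of 100 for this ranking. That they exclude 0 was a condition of the ranking. The antisense transcripts AL109615.3 (188 and 271 counts, 0.74) and ZNF503-AS2 (91 and 129, 0.71) complete the 20; the labels do not say whether counting used strand, so their reads cannot be told from those of the opposite strand.

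Other programmes were higher in part. The targets of ATF4, the factor of amino acid shortage and the integrated stress response, had a median of 0.11 over 38 measured members; intervals lay above 0 for 17 and below 0 for 1, but 3 were called higher and 0 lower. INHBE, an activin subunit, was at 14.6 and 21.8 CPM (0.58, 0.39 to 0.76), and GDF15, a stress-induced cytokine, had 245 and 305 counts (0.53, 0.28 to 0.78). ASNS, the asparagine synthetase, had 324 and 340 counts (0.28, 0.06 to 0.51) and shares over 50% of its sequence with other genes, so its count is uncertain. The factor ATF4 had a ratio of 0.05 (0.01 to 0.08). SHMT2, a mitochondrial serine enzyme, was at 303 and 338 CPM (0.16, 0.12 to 0.20), whereas the amino acid transporter SLC7A5 was at 640 and 606 CPM (-0.08, -0.11 to -0.05).

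Of 22 immediate-early genes measured, 4 were called higher and 0 lower, with a median of 0.12. Besides IER3 they were NR4A2, an orphan nuclear receptor, with 47 and 76 counts (0.90, 0.36 to 1.46), FOS with 85 and 100 (0.44, 0.01 to 0.88) and MAFF with 84 and 102 (0.49, 0.06 to 0.93). In AGS this list had a median of 0.19. Of 20 circadian genes 5 were called higher: RORA, BHLHE40, BHLHE41, the activator DBP at 16.4 and 20.1 CPM (0.30, 0.11 to 0.48) and the repressor NR1D1 with 206 and 218 counts (0.29, 0.01 to 0.58). RORA, BHLHE40 and BHLHE41 are also on the hypoxia list.

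Matrix genes formed a group of small differences. Of 17 collagen chains, 8 had an interval above 0 and 1 below, with a median of 0.08, and 3 were called higher. COL11A1, a fibril-nucleating chain, was at 353 and 426 CPM (0.27, 0.23 to 0.31), and COL7A1, the anchoring fibril chain, had 231 and 269 counts (0.43, 0.17 to 0.69). COL12A1, a fibril-associated chain, was lower at 543 and 508 CPM (-0.10, -0.13 to -0.06), short of the limit. Of 31 matrix and adhesion genes 13 intervals lay above 0 and 0 below; the integrin ITGA5 was at 134 and 166 CPM (0.31, 0.25 to 0.38) and its ligand FN1, fibronectin, at 58.5 and 70.0 CPM (0.26, 0.16 to 0.36). The 9 fibroblast markers, some of which are on these lists, had a median of 0.11 with 6 intervals above 0; their part in the matrix ratios was not tested.

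Growth factor receptors and ligands included 4 of 22 called higher. EPHA7, an ephrin receptor, had 27 and 56 counts (1.25, 0.58 to 1.98), PDGFB, a platelet-derived growth factor, 84 and 114 (0.65, 0.23 to 1.08), and its receptor PDGFRB 55 and 72 (0.60, 0.07 to 1.13). PDGFRA, the other receptor, was at 36.6 and 44.5 CPM (0.28, 0.16 to 0.40). In the TGF-beta list 3 of 23 were called higher and 1 lower. Its ligand TGFB2 was at 28.9 and 36.8 CPM (0.35, 0.21 to 0.49) and the coreceptor TGFBR3 had 233 and 276 counts (0.46, 0.20 to 0.71), while the feedback inhibitor SMAD7 was at 25.7 and 21.3 CPM (-0.27, -0.43 to -0.10).

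Of 24 targets of p53, 6 were called higher and 0 lower, with a median of 0.04. CDKN1A, the cell cycle inhibitor p21, was at 12.5 and 16.6 CPM (0.41, 0.20 to 0.62) and TP53INP1 at 13.1 and 16.6 CPM (0.34, 0.13 to 0.55). In lipid synthesis, ACSS2, which makes acetyl-CoA from acetate, was at 46.0 and 61.7 CPM (0.42, 0.32 to 0.53) and was the only one of 12 fatty acid genes called. SCD, the desaturase that makes oleate, was at 3982 and 4725 CPM (0.25, 0.24 to 0.26), a narrow interval just under 1.2-fold.

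**Figure D4:**
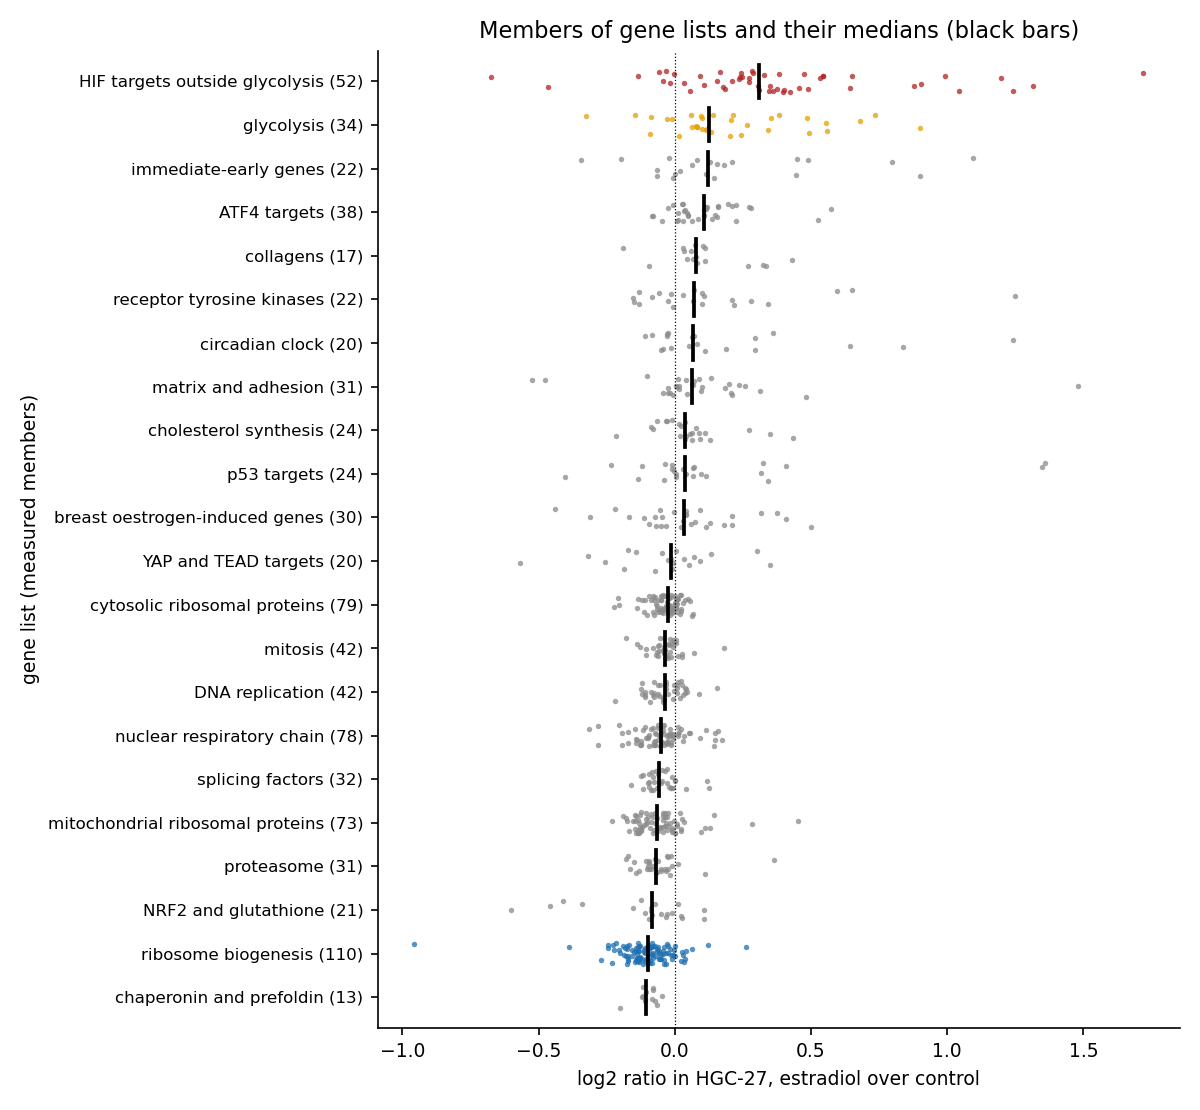
Log2 ratio of estradiol over control in HGC-27 (horizontal axis) for the measured members of 22 gene lists (rows), 1 point a gene, with black bars at the medians. The HIF targets have the highest median of the lists drawn, 0.31, and the chaperonin and prefoldin list the lowest, -0.10. The replication-dependent histones, which are not drawn, had a median of -0.17 over 23 measured members, with 3 called higher and 2 lower.

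Most calls on the lower side were in genes of fewer counts: of the 392 genes called lower, 165 had a mean count of 100 or more and 6 of 1000 or more. Of the 978 called higher, 498 had a mean count of 100 or more and 42 of 1000 or more. Several lists of abundant genes had small differences below 0. Ribosome biogenesis factors, which transcribe ribosomal RNA and assemble the subunits in the nucleolus, had a median of -0.10 over 110 members, all of them measured. Only 11 had a ratio above 0; intervals lay below 0 for 65 and above 0 for 1. Since abundant genes ran lower in HGC-27, the same was computed after subtracting genes of like count, which gave a median of -0.08 and 54 intervals below 0 against 1 above. Only 2 members passed 1.2-fold: ZNRD1, a subunit of RNA polymerase I, with 326 and 233 counts (-0.27, -0.52 to -0.03), and NOP2, with 68 and 30 counts, whose sequence is mostly shared with another gene, so its count is uncertain.

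Each step of the pathway had a like median. The 14 RNA polymerase I genes had -0.11 with 8 intervals below 0, the 10 members of the box C/D and H/ACA particles, which modify ribosomal RNA, -0.12 with 6, the 29 of the small subunit processome -0.10 with 16, the 32 of large subunit assembly -0.10 with 22, and the 25 helicases and nucleolar chaperones -0.10 with 13. NCL, nucleolin, was at 2312 CPM in control and 2162 with estradiol (-0.10, -0.11 to -0.08). NOP56, a core box C/D protein, was at 348 and 316 CPM (-0.14, -0.18 to -0.09), and UBTF, the factor that opens ribosomal DNA for transcription, at 301 and 273 CPM (-0.14, -0.19 to -0.09).

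Among the members with the lowest ratios and intervals excluding 0, NIP7 was at 76.6 and 65.6 CPM (-0.22, -0.32 to -0.13), RRS1 at 45.2 and 38.6 CPM (-0.23, -0.35 to -0.11), the GTPase GNL3L of large subunit assembly at 71.7 and 61.2 CPM (-0.23, -0.33 to -0.13), and NAF1, which builds H/ACA particles, at 28.7 and 24.2 CPM (-0.25, -0.40 to -0.09). PWP2 was the only member with an interval above 0, with 366 and 379 counts (0.26, 0.05 to 0.47), and nearly all of its sequence is shared with another gene. The ribosomal proteins themselves were close to level, with a median of -0.02 over 79 and 33 intervals below 0 against 4 above; after subtraction of like counts these became 18 below and 21 above.

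**Figure D5:**
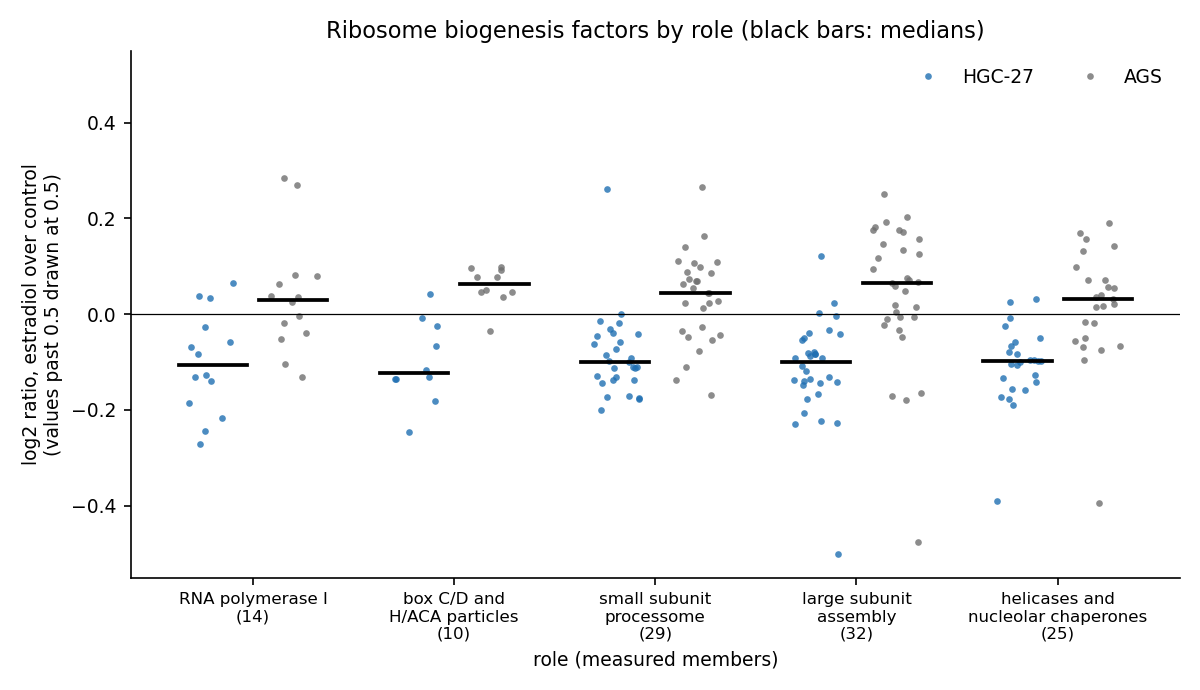
Log2 ratio of estradiol over control (vertical axis) for the 110 ribosome biogenesis factors by role, in HGC-27 and AGS, with black bars at the medians; NOP2 in HGC-27, at -0.96, is drawn at -0.5. The HGC-27 medians lie between -0.10 and -0.12 in the 5 roles and the AGS medians above 0.

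Several other lists of protein production and folding had medians from -0.10 to -0.05, while the 25 chaperones and sensors of the endoplasmic reticulum had a median of -0.01, 5 intervals above 0 and 3 below (7 and 3 after subtraction of like counts). All 13 chaperonin and prefoldin subunits, which fold actin and tubulin, had ratios below 0, with a median of -0.10 and 10 intervals below 0. After subtraction of like counts the median was -0.08, with 10 intervals below 0. PFDN2 was at 70.3 and 61.1 CPM (-0.20, -0.30 to -0.10) and TCP1 at 332 and 306 CPM (-0.12, -0.16 to -0.08). Proteasome subunits had a median of -0.07 with 15 of 31 intervals below 0, mitochondrial ribosomal proteins -0.07 with 22 of 73, splicing factors -0.06 with 20 of 32, and heat shock proteins -0.05 with 10 of 21. HSP90AA1, the inducible HSP90, was at 4124 and 3821 CPM (-0.11, -0.12 to -0.10). These lists hold abundant genes, and after subtraction of like counts the intervals below 0 were 12, 17, 13 and 8. Of all HGC-27 genes with a mean count of 1000 to 2000, 15.1% had an interval below 0. The share was 22.8% at 2000 to 5000 and 38.9% at 5000 or more.

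Of 6 genes of polyamine metabolism, 4 had an interval below 0 and none above, with a median of -0.14 and 0 called. ODC1, the rate-limiting ornithine decarboxylase, was at 349 and 305 CPM (-0.20, -0.24 to -0.15), SRM, spermidine synthase, at 92.0 and 80.3 CPM (-0.19, -0.28 to -0.11), and AMD1 at 147 and 133 CPM (-0.14, -0.20 to -0.07). SAT1, which acetylates polyamines for their breakdown, was on the other side with 343 and 342 counts (0.21, -0.01 to 0.43). SMOX, spermine oxidase, which is not on that list and breaks spermine down, was among the 20 lowest genes, with 214 and 124 counts (-0.57, -0.91 to -0.25). MYC, a driver of both ribosome and polyamine genes, was at 263 and 253 CPM (-0.06, -0.10 to -0.01). Of the 78 nuclear-encoded respiratory chain genes 21 intervals lay below 0 and 3 above, with a median of -0.05. After subtraction of like counts these became 15 below and 4 above, with a median of -0.04. Over all genes 11.1% of intervals lay below 0, and 22.8% among those with a mean count of 2000 to 5000. UQCR11 of complex III was the only one of the 78 called, with 354 and 251 counts (-0.28, -0.52 to -0.05).

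Proliferation genes were nearly level. DNA replication and mitosis lists of 42 genes each both had a median of -0.04, with 11 and 8 intervals below 0, 1 above in each, and 0 members called in either direction. The zinc exporter SLC30A1 was lower, at 80.0 and 66.6 CPM (-0.26, -0.36 to -0.17), while the metallothionein MT2A, which binds zinc, was at 55.5 and 60.2 CPM (0.12, 0.01 to 0.22). OSGIN1, an oxidative stress target of NRF2, had 201 and 137 counts (-0.34, -0.67 to -0.02) and was the only one of 21 NRF2 and glutathione genes called.

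None of the 20 lowest genes was on any of the lists used here. ZNF667, a zinc finger repressor, had 136 and 72 counts (-0.70, -1.14 to -0.28), FSTL5, a follistatin-like secreted protein, 143 and 82 (-0.59), and ANAPC15, a subunit of the anaphase-promoting complex, 209 and 123 (-0.55, -0.89 to -0.23). Deeper counts were behind CCNQ, a cyclin, with 620 and 373 (-0.52, -0.71 to -0.33), SURF2 with 590 and 365 (-0.48, -0.67 to -0.29) and TRIM23, a ubiquitin ligase, with 411 and 256 (-0.47, -0.70 to -0.24). KBTBD4 (231 and 132 counts) overlaps exons of another gene over 55.2% of its exon length, so its count is uncertain. Ratios in the 20 ran from -0.70 to -0.43, a smaller span than the 0.71 to 1.72 of the 20 highest.

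The same genes were set beside AGS, where each ratio again rests on 1 library a side, so no difference between lines was tested. Of the 20 highest genes in HGC-27, 15 had a mean count of 10 or more in AGS; 0 of these were called higher there and 2 lower, with a median of -0.01. Of the 52 measured HIF targets 41 were measured in AGS too, with a median of -0.03, 0 called higher and 3 lower. Over all 15605 genes counted in AGS, 4.72% were called higher and 5.43% lower. The calls in both sets are too few to be set apart from these shares. Over the 13882 genes measured in both lines, the HGC-27 interval lay wholly above the AGS interval for 693 (4.99%) and wholly below it for 958 (6.9%). Among the 41 HIF targets these numbers were 21 above and 0 below. DDIT4 had 190 and 137 counts in AGS (-0.55), BNIP3L 734 and 592 (-0.39), and NDRG1 332 and 353 (0.00). CA9, STC1 and NDUFA4L2 had 5 or fewer counts in each AGS library, so their response there was not measurable.

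For glycolysis the AGS median was 0.02 over 32 genes, and 16 of the HGC-27 intervals lay wholly above those of AGS and 2 wholly below. Among all genes measured in both lines, 4.99% lay wholly above and 6.9% wholly below. PGK1 had an AGS ratio of -0.06 and LDHA one of -0.01. Ribosome biogenesis in AGS had a median of 0.05, with 36 intervals above 0 and 5 below, and 50 of the 110 HGC-27 intervals lay wholly below those of AGS and 0 wholly above. Genes of like count were not subtracted here. At a mean count of 5000 or more, the median over all genes was -0.03 in HGC-27 and 0.01 in AGS. The actin and tubulin list had 21 of 29 HGC-27 intervals wholly below those of AGS and 0 wholly above. Its HGC-27 median over 32 genes was -0.03, or 0.00 after subtraction of like counts. The AGS median was 0.11, with 19 intervals above 0 and 1 below. GNL3L had an AGS ratio of 0.25 and NOP56 one of 0.08. Over all genes measured in both lines, 51 were called higher in both, 22 lower in both, 48 higher in HGC-27 and lower in AGS, and 21 the reverse.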

How the data were processed

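TRIzol RNA went into NEB libraries, per the labels' protocols. The submitters' processing notes name HISAT2 as aligner and featureCounts as counter, and give neither versions nor the strand or multiple-match settings. The values the authors deposited are unnormalized whole-number counts for each gene in 4 libraries. The notes name hg18, but 57475 of 58216 matched gene IDs have the start and end of GENCODE release 29 on GRCh38.

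Scaling used TMM (edgeR 4.0.16, R 4.3.3) on the 2 libraries of a line. Ratios took a prior of 0.5 counts, and intervals were exact conditional binomial (Clopper-Pearson, scipy 1.17.1), tested on simulated data. Group differences were not tested, as each group has 1 library. Genes with 50% or more of their 31-base stretches in another gene (1174 of those counted) were treated as uncertain, as were those with overlapping exons.

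The members and the 64 gene lists were chosen with earlier results of these data known. Genes named were the 20 highest and 20 lowest protein-coding or long noncoding genes at a mean count of 100 or more with an interval excluding 0 and under 50% shared sequence; up to 6 members a list by size of ratio at a mean count of 50 or more with an interval excluding 0; all receptor and HIF system genes (not all are reported here); and the AGS values of these. Other list members were named after their values were seen, to complete a role. The alternatives were 13: total counts, DESeq2 1.42.0 size factors, TMM of 4 libraries, a mean count of 100 or no filter, a prior of 2 counts, corrections for count, GC content or length, removal of shared sequence, protein-coding genes only, a fold of 1.5 and a 99% interval.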

Additional observations from a re-analysis of the deposited data

Results flagged for a closer look

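The 6 genes below were called in opposite directions in the 2 cell lines, among the genes named by rule. Each line has 1 library a group, so the difference between lines was not tested, and it is given as the log2 ratio in HGC-27 minus that in AGS. ALDOC, an aldolase, differed by 1.51, with 1431 and 2056 counts in HGC-27 control and estradiol and 102 and 63 in AGS. P2RX4, an ATP-gated channel, differed by 1.09, with 91 and 132 counts in HGC-27 and 298 and 249 in AGS. ACSS2, the acetate-activating enzyme, differed by 0.80, with 1315 and 1524 counts and, in AGS, 1402 and 1147.

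The other three were lower in HGC-27 and higher in AGS. SMAD7, a TGF-beta inhibitor, differed by -0.54 (734 and 527 counts in HGC-27, 612 and 787 in AGS). OSGIN1, an oxidative stress gene, differed by -0.65 (201 and 137, then 404 and 531). PCDHB14, a protocadherin, differed by -0.86 (204 and 128, then 121 and 170).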

How the results depend on the processing

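The counts of 978 genes called higher and 392 lower in HGC-27 became 498 and 165 at a mean count of 100 or more, 633 and 219 among protein-coding genes, 462 and 221 at 1.5-fold, and 521 and 175 with a 99% interval, each of which tests fewer genes or sets a stricter limit. With a 99% interval, 904 intervals lay above 0 and 1007 below, in place of 1754 and 1911. Of 50 recomputed counts of genes, 40 stayed within 1.5 times. No ratio of a gene named by rule and called changed its direction under the 7 alternatives run on single genes. The median of the HIF targets stayed between 0.31 and 0.32, that of glycolysis between 0.12 and 0.14, and that of ribosome biogenesis between -0.10 and -0.08 under the 13 alternatives. The ATF4 median ranged from 0.08 to 0.12. No paired analysis was possible because each group of HGC-27 has 1 library. Counting error limits genes of few reads, and the spread between cultures is unknown.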
